A study of Mus musculus with 12 samples.

Results

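The nuclear-encoded subunits of respiratory complexes II to V were described in mouse gastrocnemius, the large calf muscle, of 3 lines carrying engineered Gmppb alleles and of wild-type mice. They were taken by gene symbol: every gene whose symbol begins with Uqcr, Atp5 or Cox4 to Cox8, together with Cyc1 and the 4 genes Sdha to Sdhd, with symbols containing -ps, which mark pseudogenes, left out. This gave 48 of the 30488 genes of the table: 4 of complex II, 9 of complex III, 18 of complex IV and 17 of complex V. Of these, 45 had a mean of at least 1 TPM, a read density per transcript length scaled to the same sum in each library, and were tested; Cox6b2, Cox4i2 and Cox7b2 did not.

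RNA was sequenced from 12 mice aged 32 weeks, 3 in each of 4 groups. KO mice were heterozygous for a Cas9-made deletion of 303 bp covering exons 2 and 3 of Gmppb. P32L mice were heterozygous for a substitution at base 95 of the gene that replaces proline 32 by leucine. R287Q mice were homozygous for a substitution at base 860 that replaces arginine 287 by glutamine. WT mice carried no edited allele. Gmppb encodes an enzyme that makes GDP-mannose, a sugar donor for the glycans of alpha-dystroglycan. The labels name neither the sex nor the litter of a mouse, nor a batch, and they do not say whether a line goes back to more than 1 founder.

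Complexes I to IV of the inner mitochondrial membrane pass electrons from NADH and succinate to oxygen, complexes I, III and IV pump protons as they do so, and complex V, the ATP synthase, uses the proton gradient to make ATP. Complex II is encoded wholly in the nucleus, whereas complexes III, IV and V also hold subunits encoded in mitochondrial DNA, so both genomes must supply them. Striated muscle replaces some ubiquitous subunits of complex IV by heart and muscle isoforms, and oxidative fibres hold more of these complexes than fast glycolytic ones.

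In every library, transcripts of the mitochondrial genome took 53.0% to 58.4% of the TPM and their nuclear copies another 19.6% to 21.0%, so all other genes share the remainder. TPM keeps no sequencing depth, which is therefore unknown, and no counting interval can be given. All 12 skeletal muscle markers were measured, with a sum of 41964 to 55682 TPM in KO mice, 38986 to 49556 in P32L mice and 36773 to 44308 in R287Q mice, against 38419 to 49256 in WT mice; all 6 cardiac markers averaged under 1 TPM. Gmppb itself lay at 3.33 to 3.62 TPM in KO mice, 3.26 to 3.57 in P32L mice and 3.03 to 4.16 in R287Q mice, against 3.02 to 4.42 in WT mice, so its gene-level value sets no line apart and does not check the labels. The mice of a group are separate samples by their labels, and p-values measure the spread between them. In a bulk sample, fewer cells of a type and less RNA per cell cannot be told apart.

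Promoters, here the 250 bases before and the 50 bases after an annotated start in RefSeq's GRCm38.p6 annotation, were at hand for 36 of the 48 genes. They were searched on both strands for motifs of regulators known for respiratory genes: NRF1 (GCGCA and GCGC with any 1 base between them), the ETS family that includes GABPA (CCGGAAG) and the estrogen-related receptor ESRRA (TCAAGGTCA). The NRF1 letters occurred in 10 of the 36 genes (27.8%), against 5.19% of all genes with a promoter and 12.9% of those among the genes tested. The ETS letters occurred in 13 genes (36.1%), against 9.93% and 21.9%. The ESRRA letters occurred in 2 genes, Atp5g3 and Sdhd (5.56%), against 0.466% and 0.330%. The muscle E-box (CAGCTG, the same on both strands), a site form bound by myogenic factors and added after the other results were seen, occurred in 2 genes, Cox8b and Atp5b (5.56%), against 18.3% and 17.1%. These matches describe letters and show no binding.

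The promoters of 6 genes are printed in GRCm38.p6, 5′ to 3′ along the gene's own strand, with motif matches in capitals. The first 4 set a muscle isoform of complex IV beside its ubiquitous counterpart. Cox8b (chr7:140900397-140900696, minus strand) held 2 E-boxes and 2 CpG dinucleotides, whereas Cox8a (chr19:7217567-7217866, minus strand) held 2 ETS matches and 19 CpG. Cox7a1 (chr7:30183921-30184220, plus strand) had 7 CpG and Cox7a2 (chr9:79759804-79760103, minus strand) had 20, neither with a motif match. The last 2 hold NRF1 letters: Cox6a1 (chr5:115348909-115349208, minus strand) held 2 NRF1 matches, 1 ETS match and 32 CpG, and Sdha (chr13:74350191-74350490, minus strand) held 3 NRF1 matches and 25 CpG. The median over the promoters of the complexes was 19 CpG, against 8 over all promoters and 22 over those of tested genes.
Cox8b: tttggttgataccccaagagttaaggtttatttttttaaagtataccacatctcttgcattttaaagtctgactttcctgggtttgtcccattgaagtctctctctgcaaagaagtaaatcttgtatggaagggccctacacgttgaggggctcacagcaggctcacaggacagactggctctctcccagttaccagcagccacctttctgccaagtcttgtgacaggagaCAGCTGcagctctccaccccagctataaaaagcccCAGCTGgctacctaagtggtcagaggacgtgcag
Cox8a: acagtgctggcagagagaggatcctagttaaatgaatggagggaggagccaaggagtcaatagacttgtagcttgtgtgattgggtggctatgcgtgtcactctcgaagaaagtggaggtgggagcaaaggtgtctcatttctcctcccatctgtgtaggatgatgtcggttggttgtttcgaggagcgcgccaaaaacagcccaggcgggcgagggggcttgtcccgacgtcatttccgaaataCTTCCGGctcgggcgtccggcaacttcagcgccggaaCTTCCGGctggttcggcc
Cox7a1: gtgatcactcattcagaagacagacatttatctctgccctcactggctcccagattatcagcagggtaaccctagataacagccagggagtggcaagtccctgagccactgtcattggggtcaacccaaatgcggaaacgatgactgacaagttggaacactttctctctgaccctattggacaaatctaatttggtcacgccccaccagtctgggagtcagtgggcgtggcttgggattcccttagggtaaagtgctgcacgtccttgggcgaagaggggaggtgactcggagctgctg
Cox7a2: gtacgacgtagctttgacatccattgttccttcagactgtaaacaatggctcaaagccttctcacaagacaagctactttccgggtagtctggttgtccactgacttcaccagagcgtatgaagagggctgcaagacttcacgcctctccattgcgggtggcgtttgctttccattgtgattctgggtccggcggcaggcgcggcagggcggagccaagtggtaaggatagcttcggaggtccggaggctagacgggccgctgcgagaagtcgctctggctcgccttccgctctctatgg
Cox6a1: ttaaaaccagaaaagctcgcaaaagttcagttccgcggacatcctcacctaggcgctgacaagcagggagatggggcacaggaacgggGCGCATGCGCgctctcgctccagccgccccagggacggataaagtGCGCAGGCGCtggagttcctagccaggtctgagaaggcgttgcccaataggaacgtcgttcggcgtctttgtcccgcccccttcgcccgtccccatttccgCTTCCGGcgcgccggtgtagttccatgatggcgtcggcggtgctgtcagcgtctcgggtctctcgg
Sdha: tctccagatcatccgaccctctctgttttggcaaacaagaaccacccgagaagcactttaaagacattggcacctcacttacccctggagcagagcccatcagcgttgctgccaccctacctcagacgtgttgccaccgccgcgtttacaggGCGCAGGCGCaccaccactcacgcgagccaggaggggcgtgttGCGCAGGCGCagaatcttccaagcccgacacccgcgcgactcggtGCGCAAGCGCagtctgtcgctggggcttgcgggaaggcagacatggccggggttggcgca

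The 45 tested genes spanned levels from Cox6a2, with a mean of 1322 TPM over the 12 mice, to Cox6c2, with 6.47 TPM. Complex II lay in the lower part of this range: Sdhd, a membrane anchor, averaged 75.1 TPM, Sdha, the flavoprotein that oxidises succinate, 71.7, Sdhb, the iron-sulfur subunit, 48.1, and Sdhc, the other anchor, 27.8. Sdhd (chr9:50596357-50603812, mm10) had 67.4, 85.7 and 86.3 TPM in KO mice, 77.9, 66.3 and 65.9 in P32L mice and 69.6, 75.6 and 82.8 in R287Q mice, against 85.3, 72.9 and 65.8 in WT mice. Sdha had 63.2, 82.9 and 73.3 TPM in KO mice, 75.9, 64.3 and 67.8 in P32L mice and 62.3, 70.1 and 84.1 in R287Q mice, against 86.1, 69.3 and 61.5 in WT mice. For both genes the lowest mouse was WT-3 and the groups overlapped.

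In complex III, Cyc1 (chr15:76343523-76346260), which encodes cytochrome c1, was highest, followed by the small subunits Uqcrq and Uqcr10. Cyc1 had 239.6, 318 and 308 TPM in KO mice, 277, 252 and 252 in P32L mice and 249.7, 284 and 328 in R287Q mice, against 351, 258 and 227 in WT mice. The highest and the lowest value of Cyc1 both lay in WT mice, so every mutant value fell inside the WT range. Uqcrq had 197 to 274 TPM in KO mice, 189 to 219.7 in P32L mice and 214 to 248 in R287Q mice, against 181 to 253 in WT mice. Uqcr10 had 204 to 243 TPM in KO mice, 181 to 209 in P32L mice and 191 to 230.3 in R287Q mice, against 195 to 232 in WT mice. The Rieske protein Uqcrfs1 averaged 192 TPM, the core proteins Uqcrc1 and Uqcrc2 120.2 and 44.2 TPM, and the other subunits Uqcrb, Uqcr11 and Uqcrh 140.2, 84.9 and 76.6 TPM. Uqcrfs1, whose iron-sulfur cluster passes electrons to cytochrome c1, had 173, 217 and 222 TPM in KO mice, 192, 174 and 178 in P32L mice and 176, 194 and 208 in R287Q mice, against 224, 181 and 159 in WT mice. Uqcrc1 had 108 to 137 TPM in KO mice, 106 to 122 in P32L mice and 104 to 138 in R287Q mice, against 101 to 148 in WT mice. WT-1 was the highest mouse for both, and in both the 4 groups overlapped. Uqcrh, the hinge protein that binds cytochrome c1, had 72.5 to 87.8 TPM in KO mice, 70.2 to 79.0 in P32L mice and 74.4 to 79.1 in R287Q mice, against 68.4 to 80.4 in WT mice.

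In complex IV, Cox6a2 (chr7:128205435-128206387), the heart and muscle form of subunit 6A, stood first among all members, and Cox7c and Cox5b followed. Cox6a2 had 1187, 1332 and 1308 TPM in KO mice, 1320.1, 1163 and 1448 in P32L mice and 1152, 1209.7 and 1431 in R287Q mice, against 1662, 1588 and 1068 in WT mice. Cox7c had 397, 395 and 447 TPM in KO mice, 366, 341 and 349 in P32L mice and 378, 364 and 401 in R287Q mice, against 395, 432 and 342 in WT mice. Cox5b had 272 to 374 TPM in KO mice, 262 to 302 in P32L mice and 291 to 339 in R287Q mice, against 261 to 369 in WT mice. Cox5a, the only other subunit 5 gene, averaged 73.3 TPM, Cox6b1 65.5 TPM, Cox7b 115 TPM and the ubiquitous subunit 4 gene Cox4i1 248 TPM. Of the alternative isoforms, Cox4i2, known from lung, lay between 0.390 and 0.654 TPM, and Cox6b2, known from testis, between 0.317 and 1.37 TPM. Cox7b2, the testis form of subunit 7B, was listed at 0 in 11 of 12 mice. Cox7a2l, which encodes a factor that joins complexes III and IV into supercomplexes, averaged 17.8 TPM and varied least within groups among the 45 tested genes (SD 0.091 on the log2 scale). Cox6c2, which the GENCODE M21 annotation lists as a processed pseudogene, varied most among them (SD 0.33).

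In complex V, the beta and alpha subunits of the catalytic head, Atp5b (chr10:128083273-128090391) and Atp5a1, were highest, followed by the c-subunit gene Atp5g3. Atp5b had 723, 934 and 867 TPM in KO mice, 857, 729 and 746 in P32L mice and 752, 834 and 966 in R287Q mice, against 956, 788 and 712 in WT mice. Atp5a1 had 468 to 575 TPM in KO mice, 447 to 544 in P32L mice and 449 to 581 in R287Q mice, against 449 to 606 in WT mice. Atp5g3 had 344 to 467 TPM in KO mice, 326 to 376 in P32L mice and 348 to 423 in R287Q mice, against 306 to 449 in WT mice. In each of these 3 genes all group ranges overlapped. The c subunit, which forms the rotating ring in the membrane, comes from 3 genes with different leader peptides: Atp5g3 averaged 379.7 TPM, Atp5g1 113 and Atp5g2 37.6. The gamma, delta and epsilon subunits of the stalk, Atp5c1, Atp5d and Atp5e, averaged 65.5, 86.0 and 171 TPM. In the stator, which holds the head still, Atp5o, the oligomycin sensitivity conferring protein, averaged 157 TPM, the d subunit Atp5h 138, the coupling factor F6 gene Atp5j 104 and the b subunit Atp5pb 82.3. In the membrane part, Atp5k averaged 117 TPM, Atp5l 103, the f subunit Atp5j2 92.6, Atp5mpl 72.7 and Atp5md, which encodes DAPIT, 58.3. Atp5e had 163 to 212 TPM in KO mice, 148 to 176 in P32L mice and 137 to 188 in R287Q mice, against 139 to 195 in WT mice. Atp5d had 74.6 to 103 TPM in KO mice, 74.5 to 86.3 in P32L mice and 79.0 to 94.0 in R287Q mice, against 74.4 to 104 in WT mice. Atp5c1, on the same stalk, had 63.5 to 70.5 TPM in KO mice, 60.4 to 67.7 in P32L mice and 63.2 to 72.0 in R287Q mice, against 59.4 to 68.0 in WT mice, and neither it nor the other 2 separated a line from WT. Atp5j had 99.5 to 125 TPM in KO mice, 93.8 to 101 in P32L mice and 98.7 to 111 in R287Q mice, against 97.7 to 106 in WT mice. Atp5md had 59.5 to 72.9 TPM in KO mice, 53.9 to 57.9 in P32L mice and 50.9 to 60.8 in R287Q mice, against 52.6 to 64.7 in WT mice. The 3 P32L values of Atp5md lay below the 3 KO values, and both overlapped WT.

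**Figure D1:**
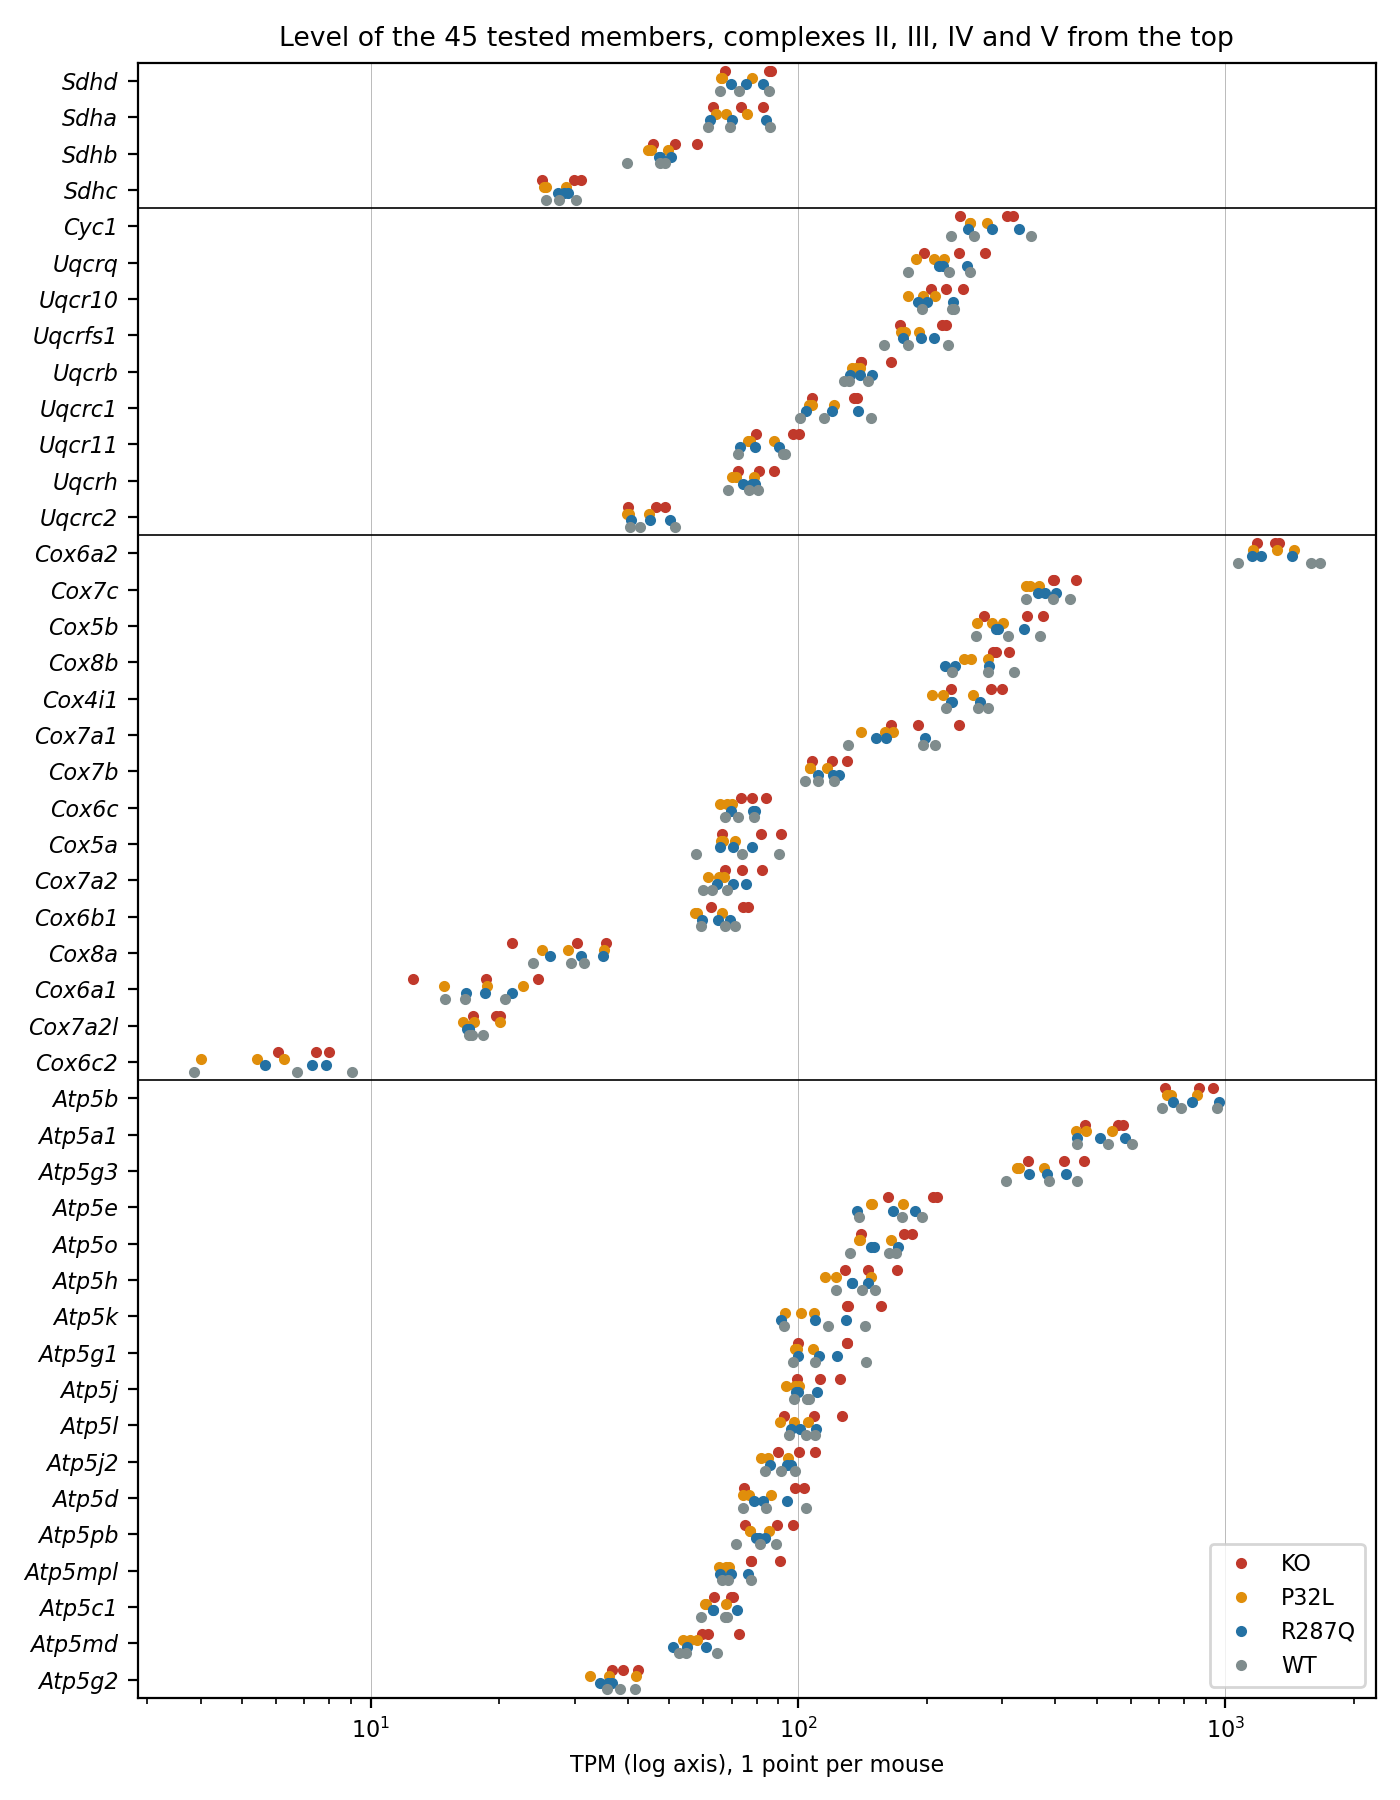
Level of each of the 45 tested genes in each of the 12 mice, on a log axis in TPM, with 1 point per mouse, a colour per group and complexes II to V from the top. Cox6a2 and Atp5b stand at the high end and Cox6c2 at the low end, and at every gene the points of each mutant group overlap those of WT.

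For 10 of the genes, near-identical copies elsewhere in the genome were also quantified, 15 in all, with at least 95% identity over at least 100 bases and a mean of at least 1 TPM. They are annotated as processed pseudogenes, and reads from a parent transcript can be assigned to them. For 6 of the 15 copies the listed level exceeded that of the parent. Gm12338, a copy of Cox7c, averaged 423 TPM beside 384 TPM for Cox7c itself. Gm10039 averaged 344 TPM beside 113 TPM for Atp5g1, and Gm10221 317 TPM beside 103 TPM for Atp5l, the g subunit. Gm16418 averaged 168 TPM beside 84.9 TPM for Uqcr11. The copies of Atp5g2 held 78.3% to 80.5% of the TPM of that gene and its copies together, and the copy of Cox7c 46.8% to 58.5%. The levels of Cox7c, Atp5g1, Atp5g2, Atp5l, Uqcr11, Atp5h, Uqcrb, Atp5o, Atp5k and Cox7a2l are therefore uncertain, and their order among the genes may change with the assignment of reads. Among the symbols left out by the rule, Cox5b-ps averaged 149.8 TPM and Atp5pb-ps 25.4 TPM.

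**Figure D2:**
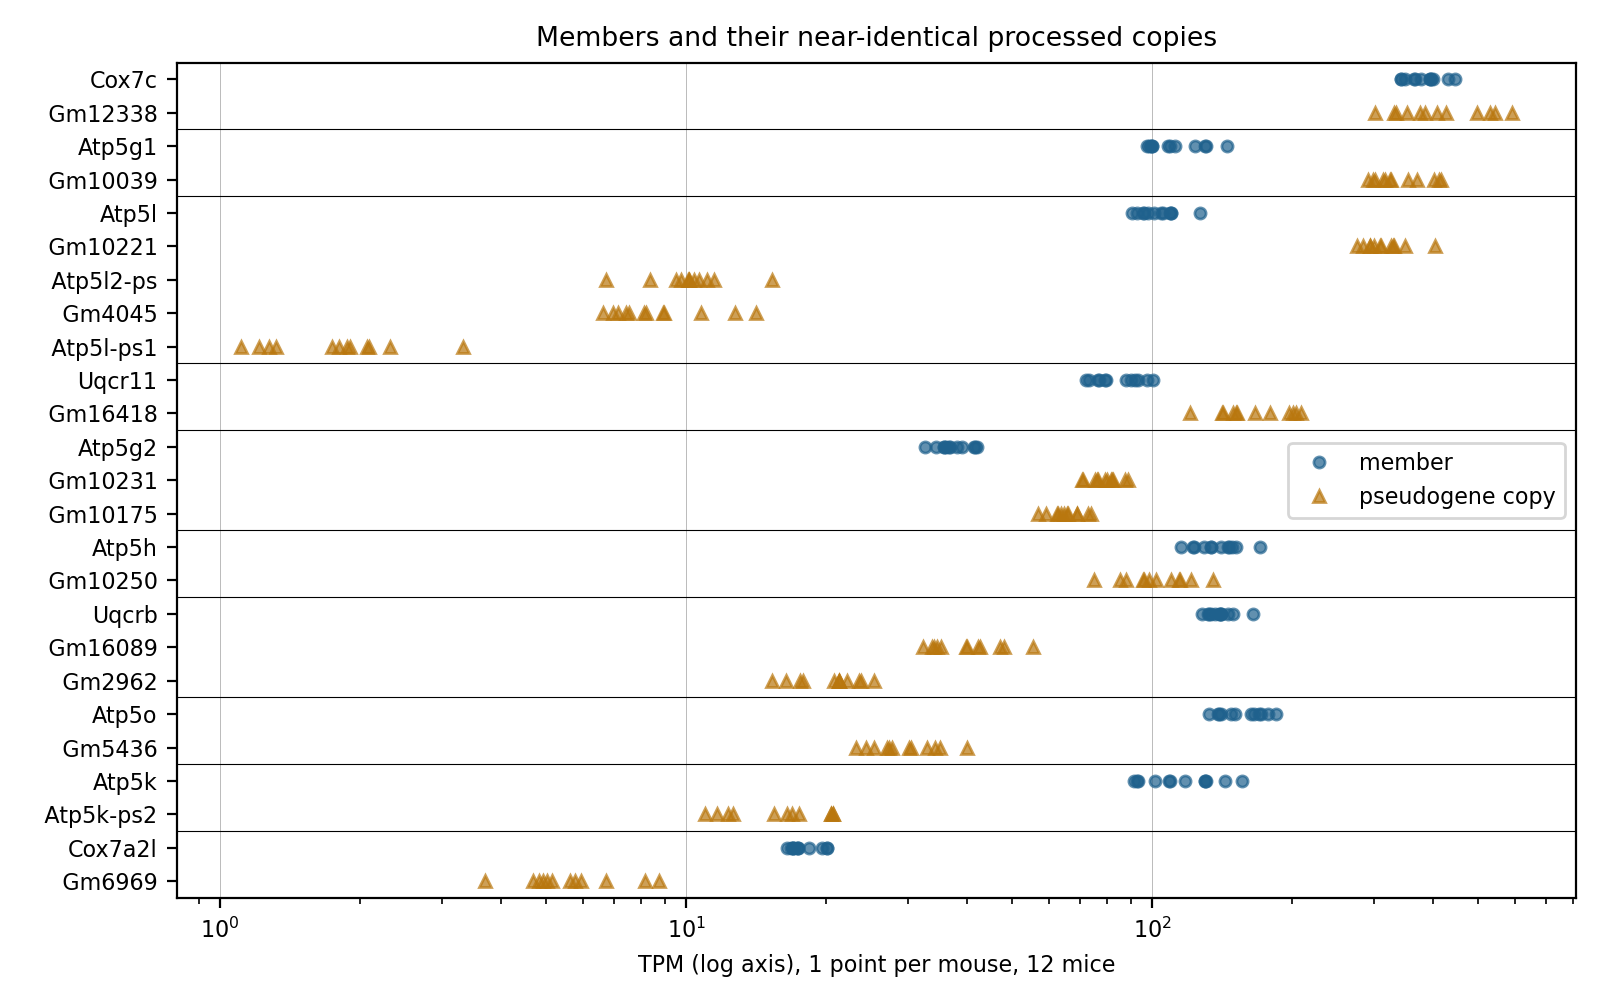
TPM on a log axis of the 10 genes (circles) and their 15 copies (triangles), 1 point for each of the 12 mice. For Cox7c, Atp5g1, Atp5l, Uqcr11 and Atp5g2 the mean of at least 1 copy lies above that of the parent gene.

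All 48 genes together came to 7296, 8597 and 8920.4 TPM in KO mice, 7960.4, 7054 and 7307 in P32L mice and 7348, 7486 and 8588 in R287Q mice, against 8959.7, 8384 and 6726 in WT mice, that is 0.674% to 0.898% of the library total. The highest and the lowest sum both belonged to WT mice. Complex II came to 202, 250.1 and 249 TPM in KO mice, 232, 201 and 204 in P32L mice and 207, 221 and 246 in R287Q mice, against 251, 217 and 193 in WT mice. Complex III came to 1255, 1522 and 1560.3 TPM in KO mice, 1370.2, 1243 and 1247 in P32L mice and 1296, 1334 and 1505 in R287Q mice, against 1558, 1373 and 1172 in WT mice. Complex IV came to 2971, 3339.5 and 3532 TPM in KO mice, 3167, 2844 and 3082 in P32L mice and 2927, 2925 and 3402 in R287Q mice, against 3673, 3594 and 2669 in WT mice. In complexes II, III and IV too, at least 1 WT mouse lay at or near each end of the range. Complex V came to 2868, 3485 and 3579 TPM in KO mice, 3191, 2764 and 2775 in P32L mice and 2918, 3006 and 3435 in R287Q mice, against 3479, 3199.8 and 2692 in WT mice. Within a mouse, complex IV took 38.8% to 42.9% of the sum, complex V 38.0% to 40.5%, complex III 16.4% to 17.8% and complex II 2.59% to 2.96%, so the proportions between complexes were narrower than the sums. These sums and shares leave out the copies, among them Gm10039 (344 TPM) and Gm10221 (317) of complex V genes and Gm12338 (423) of Cox7c. The order of complexes IV and V may therefore change with the assignment of reads.

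Because mitochondrial transcripts fill most of each library, the sums were also taken after removing those genes together with their copies and rescaling each library to the same total. On this scale the 48 genes came to 33026, 31447 and 36694 TPM in KO mice, 31582, 32447 and 30737 in P32L mice and 34786, 35117 and 35732 in R287Q mice, against 35265, 35639 and 31637 in WT mice. Here R287Q mice, at 34786 to 35732 TPM, did not overlap P32L mice, at 30737 to 32447 TPM, while both overlapped WT mice. The 6 mitochondrially encoded subunits of complexes III, IV and V (mt-Cytb, mt-Co1, mt-Co2, mt-Co3, mt-Atp6 and mt-Atp8) summed to 318882 to 335345 TPM in KO mice, 327121 to 345680.0 in P32L mice and 325161 to 352287 in R287Q mice, against 320623 to 342422 in WT mice, far above the nuclear genes of the same complexes. Their ranges overlapped in all 4 groups.

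The muscle isoforms of complex IV exceeded their ubiquitous counterparts in all 12 mice. Cox6a2 stood above Cox6a1 by 94.6, 71.4 and 53.0-fold in KO mice, 58.1, 62.2 and 97.5 in P32L mice and 62.3, 56.4 and 85.5 in R287Q mice, against 80.5, 106 and 64.3 in WT mice. Cox8b, the heart and muscle form of subunit 8, stood above Cox8a by 13.3, 9.57 and 8.74-fold in KO mice, 7.90, 8.43 and 10.1 in P32L mice and 7.51, 6.30 and 10.7 in R287Q mice, against 8.81, 13.3 and 7.76 in WT mice. Cox7a1, the heart and muscle form of subunit 7A, stood above Cox7a2 by 2.45, 2.59 and 2.89-fold in KO mice, 2.48, 2.44 and 2.29 in P32L mice and 2.13, 2.36 and 2.82 in R287Q mice, against 3.32, 2.87 and 2.18 in WT mice. The difference in log2 ratio from WT ranged over the 9 tests from -0.29 (Cox6a2 to Cox6a1 in R287Q) to 0.097 (Cox8b to Cox8a in KO). None passed an exact two-sided permutation test, with p from 0.4 to 0.9 and 0.75 to 0.9 after Benjamini-Hochberg adjustment over the 9 tests; 3 mice against 3 cannot give a p below 0.1. In every ratio and every line the values overlapped those of WT.

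**Figure D3:**
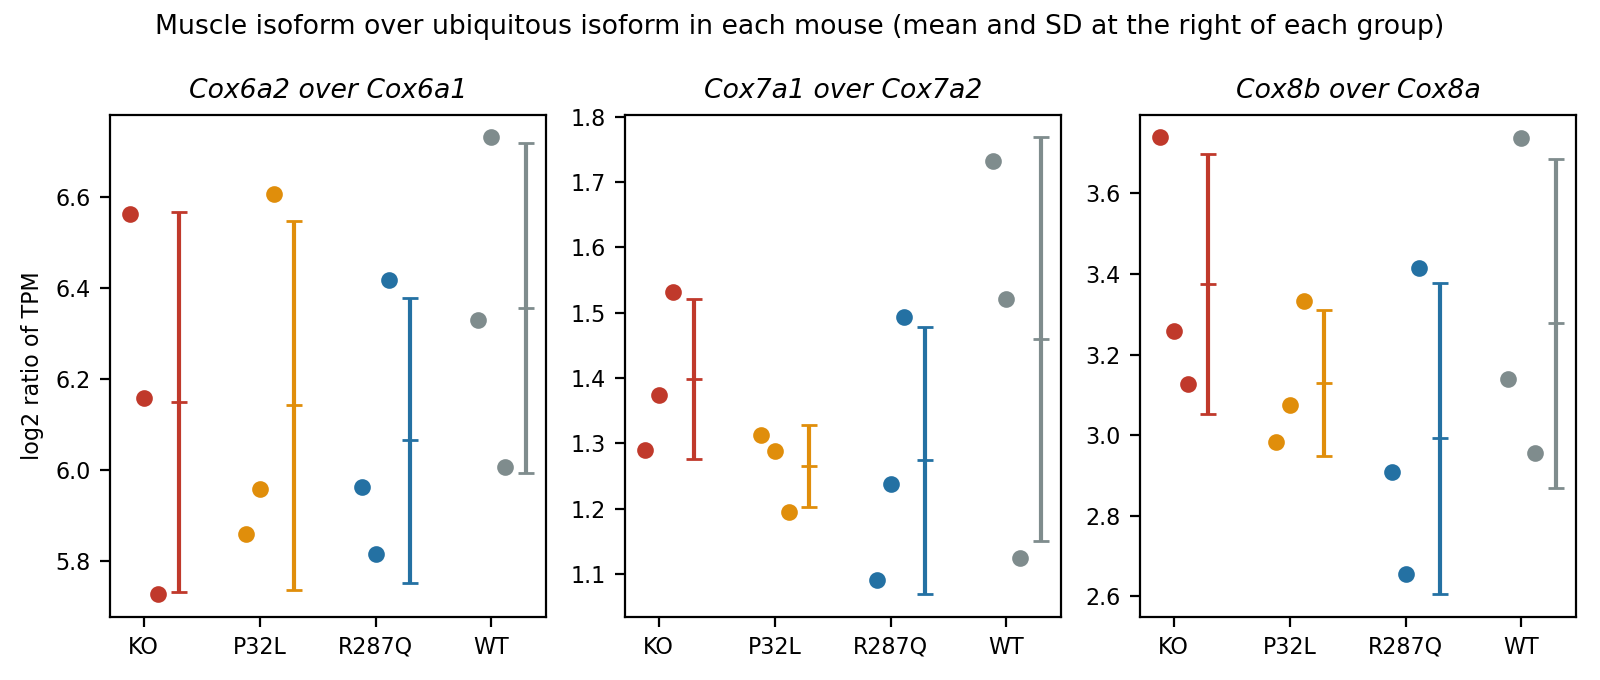
log2 ratio of the TPM of the muscle isoform to that of the ubiquitous isoform for Cox6a2 over Cox6a1, Cox7a1 over Cox7a2 and Cox8b over Cox8a, each panel with its own axis. Points are the 3 mice of each group, and the bar at the right of each group is the mean with its SD. All groups overlap in each panel.

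The ubiquitous isoforms Cox6a1 and Cox8a varied more within groups than most members, whereas Cox7a2 (SD 0.11 on the log2 scale) varied less. Cox6a1 had 12.6, 18.7 and 24.7 TPM in KO mice, 22.7, 18.7 and 14.9 in P32L mice and 18.5, 21.5 and 16.7 in R287Q mice, against 20.7, 15.0 and 16.6 in WT mice. Cox8a had 21.4, 30.4 and 35.6 TPM in KO mice, 35.1, 29.0 and 25.2 in P32L mice and 31.0, 34.9 and 26.2 in R287Q mice, against 31.5, 24.0 and 29.5 in WT mice. Cox7a1 had 165, 191 and 237 TPM in KO mice, 167, 159.8 and 141 in P32L mice and 161, 152 and 198 in R287Q mice, against 209, 196 and 131 in WT mice. In Cox6a1 and Cox8a, KO-1 was the lowest and KO-3 the highest of the 12 mice. Their SDs within groups, 0.31 and 0.26 on the log2 scale, were next after that of Cox6c2 among the 45 tested genes, and the muscle form Cox7a1 followed with 0.25. The adipocyte score, the mean deviation of 8 measured adipocyte markers from the mean of the 12 mice on the log2 scale, was -0.57, 0.040 and 0.58 in KO mice, 1.24, 0.27 and -1.16 in P32L mice and 0.62, 0.90 and -1.14 in R287Q mice, against -0.79, -0.43 and 0.43 in WT mice. In KO, P32L and R287Q mice the animal with the highest adipocyte score was also the highest in Cox6a1 and Cox8a, whereas in WT it was not. These markers summed to 341 to 906 TPM in KO mice, 266 to 1267 in P32L mice and 296 to 1062 in R287Q mice, against 328 to 692 in WT mice. Of the 10 listed, Cidea averaged under 1 TPM, and Ucp1 was not measured. The endothelial score, taken in the same way over 6 tested markers, was highest within its group in KO-3 (0.25), P32L-1 (-0.017), R287Q-2 (0.021) and WT-1 (0.27). These were the mice highest in Cox6a1 and Cox8a in all 4 groups. Both matches were seen only after the values were known. The part of either list in the levels of Cox6a1 and Cox8a was not tested.

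From mouse to mouse the genes moved together. The score of a mouse, the mean over the 45 genes of log2(TPM + 1) less the mean of the 12 mice, was -0.097, 0.14 and 0.23 in KO mice, 0.030, -0.14 and -0.14 in P32L mice and -0.042, -0.061 and 0.091 in R287Q mice, against 0.12, 0.061 and -0.19 in WT mice. KO-3 was the highest of the 12 mice for 30 genes and WT-1 for 9, and WT-3 was the lowest for 24, P32L-3 for 8 and P32L-2 for 6. KO-2 lay above the mean of the 12 mice for all 45 genes, and WT-3 for only 2. The places of several mice changed with the scale. With mitochondrial genes and copies left out, the members of KO-2 summed to 31447 TPM, and only P32L-3, at 30737 TPM, lay lower. WT-3, lowest by score, summed to 31637 TPM there, above P32L-1, at 31582 TPM, and above KO-2 and P32L-3. R287Q-1 and R287Q-2, with scores below 0, summed to 34786 and 35117 TPM, above KO-1, at 33026 TPM. KO-3, highest by score, was also highest there, at 36694 TPM. The scores of the 4 complexes kept close to each other: KO-3 had 0.17, 0.19, 0.25 and 0.24 for complexes II, III, IV and V, and WT-3 had -0.19, -0.20, -0.21 and -0.17. The 9 genes highest in WT-1 were Sdha, Cyc1, Uqcrfs1, Uqcrc1, Uqcrc2, Cox6a2, Atp5a1, Atp5d and Atp5g1, a grouping seen only after the values were known. It holds the flavoprotein of complex II, cytochrome c1, the Rieske protein and both core proteins of complex III, and the alpha subunit of complex V.

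The median SD within groups was 0.16 on the log2 scale for the 45 genes, against 0.14 for all 9152 genes tested and 0.16 for those with a mean of at least 10 TPM. Genes with transcripts up to the median length gave the scores 0.26 in KO-3 and -0.18 in WT-3, and those with longer transcripts 0.19 and -0.19. In other mice the 2 sets lay further apart relative to their scores. The shorter set had 0.076 in WT-1, 0.097 in WT-2, -0.092 in R287Q-2 and 0.056 in R287Q-3. The longer set had 0.17, 0.0046, -0.023 and 0.13 in the same order. The score of the 36 nuclear subunits of complex I was -0.090, 0.17 and 0.24 in KO mice, 0.031, -0.13 and -0.13 in P32L mice and -0.065, -0.092 and 0.085 in R287Q mice, against 0.13, 0.052 and -0.21 in WT mice. It put KO-3 highest and WT-3 lowest, as the score of complexes II to V did. The share of mitochondrial transcripts in a library was lowest in KO-2, at 53.0%, and highest in WT-3, at 58.4%, and the score of the slow fibre markers was -0.039, -1.26 and 1.14 in KO mice, -0.16, 0.053 and -1.88 in P32L mice and 1.03, 1.15 and -0.83 in R287Q mice, against 0.16, 0.077 and 0.55 in WT mice. The part of these values in the order of the mice was not tested.

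**Figure D4:**
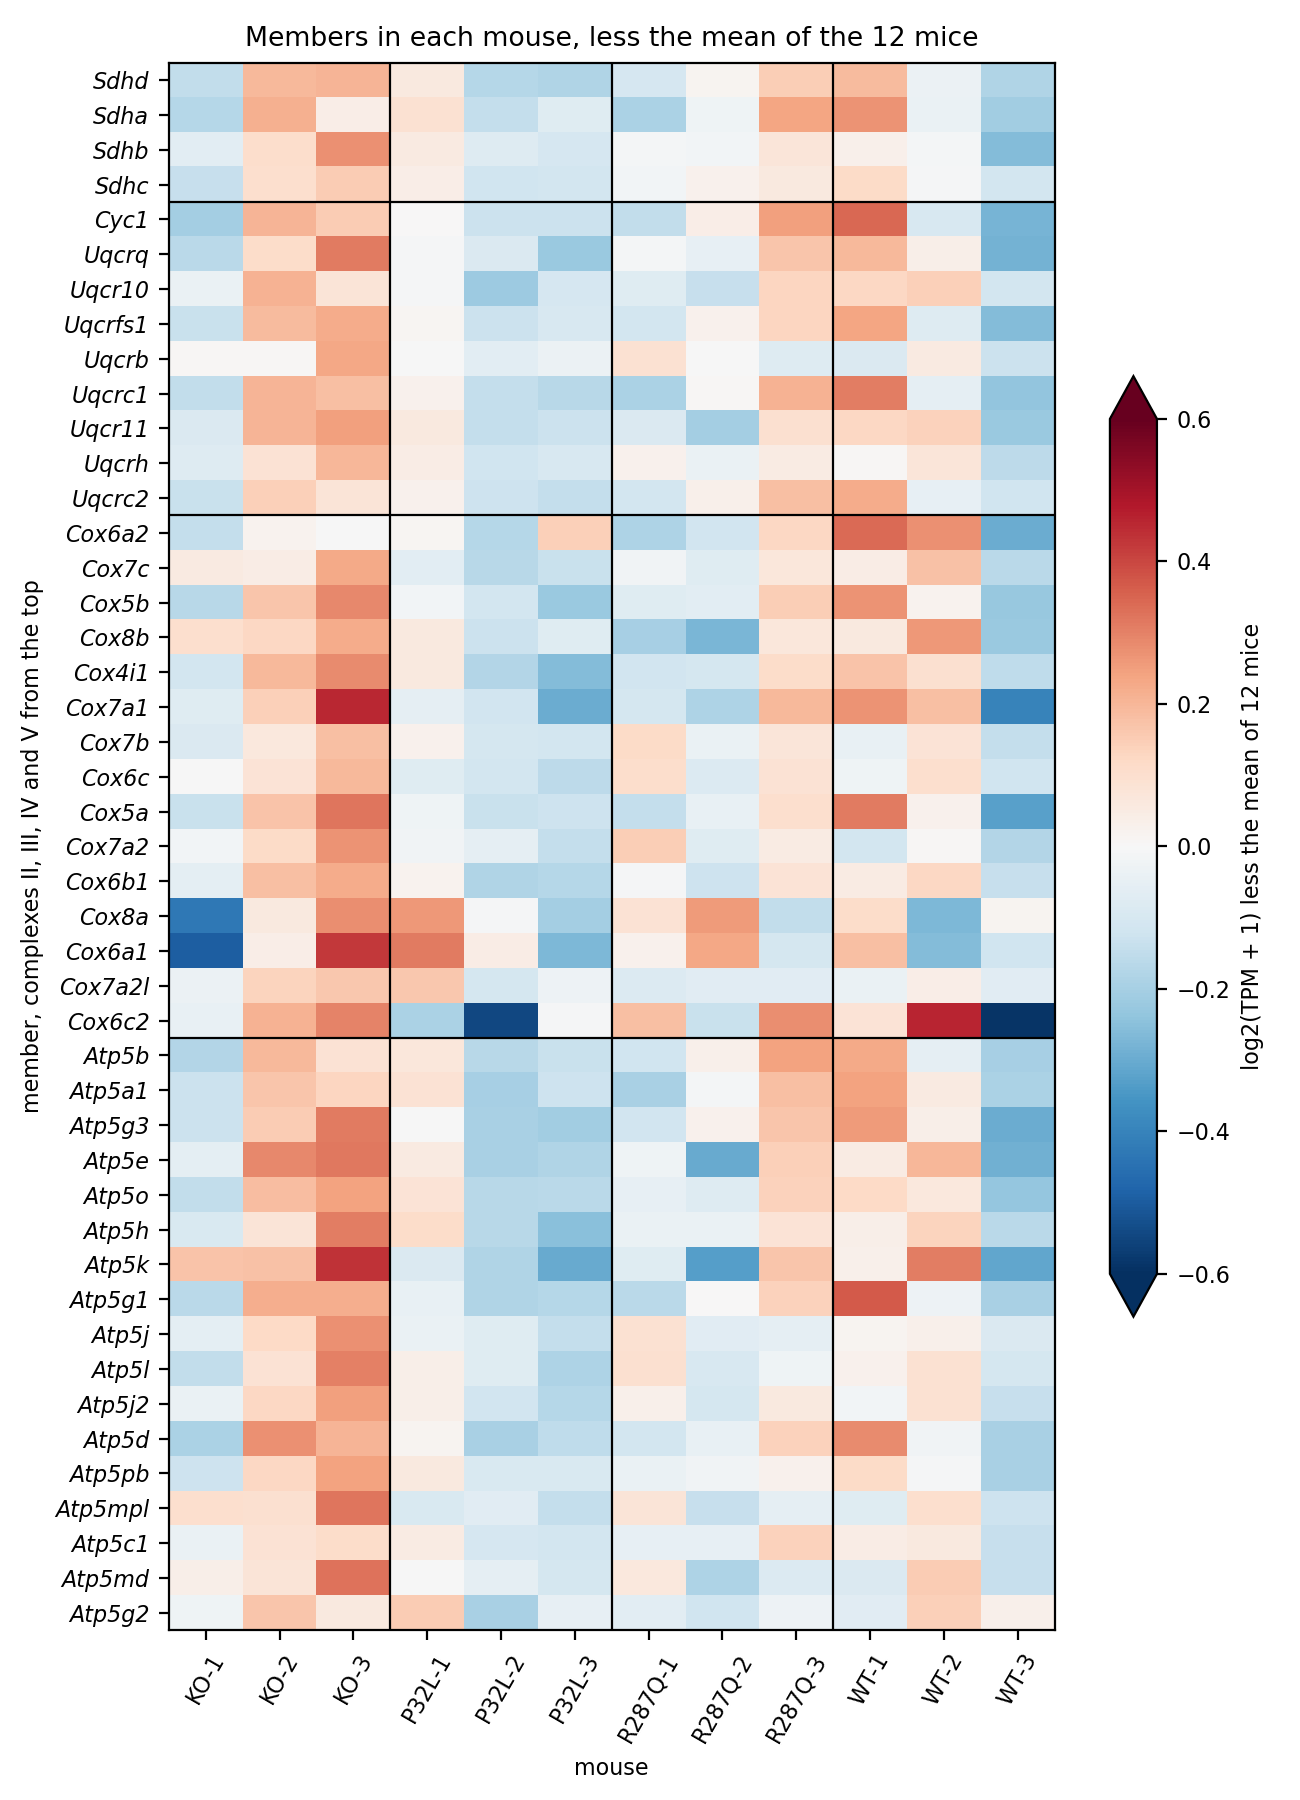
log2(TPM + 1) of the 45 tested genes (rows, complexes II to V from the top) in each of the 12 mice (columns), less the mean of the 12 mice; red is higher and blue lower, and the colours stop at the ends of the scale. Whole columns share a colour: KO-2 and KO-3 are mostly red, and P32L-2, P32L-3 and WT-3 mostly blue.

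KO mice were compared with WT mice to ask how loss of 1 Gmppb copy bears on these genes. No member passed the test. In all, 44 of the 45 genes had a higher mean in KO mice, with a median log2 fold change of 0.097, against 0.0063 over all 9152 genes tested, of which 52.1% were higher. The single gene with a lower mean was Cox6a2, at -0.15 ± 0.16 (SE, adjusted p = 0.939 by limma). By limma with Benjamini-Hochberg adjustment 0 of the 45 were called, against a background of 0.0109% of the genes tested, and 0 without the intensity trend or with robust variances. At an unadjusted p under 0.05 there were 0, against 5.95% of all genes, and 2 without the trend, against 550 of all 9152 genes. No gene had KO values clear of the WT values, which 7.87% of all genes did. By complex, the medians were 0.067 over 4 genes of complex II, 0.096 over 9 of complex III, 0.10 over 15 of complex IV and 0.11 over 17 of complex V.

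The smallest p-values in KO belonged to Cox7a2, the complex V proteolipid Atp5mpl and Sdhb, none of which passed. Cox7a2 had 67.3, 73.8 and 82.1 TPM in KO mice, 67.1, 65.5 and 61.4 in P32L mice and 75.6, 64.6 and 70.4 in R287Q mice, against 63.0, 68.4 and 60.1 in WT mice. Its log2 fold change was 0.22 ± 0.099 (SE, adjusted p = 0.834 by limma). KO-2 and KO-3 lay above all WT mice, while KO-1 lay among them. Atp5mpl had 77.7, 77.4 and 90.7 TPM in KO mice, 67.8, 69.0 and 65.5 in P32L mice and 76.3, 65.7 and 69.7 in R287Q mice, against 68.7, 77.7 and 66.4 in WT mice, a log2 fold change of 0.20 ± 0.098 (SE, adjusted p = 0.850 by limma). Sdhb had 45.8, 51.6 and 58.1 TPM in KO mice, 49.7, 45.4 and 44.6 in P32L mice and 47.5, 47.4 and 50.4 in R287Q mice, against 49.0, 47.4 and 39.8 in WT mice, a log2 fold change of 0.19 ± 0.11 (SE, adjusted p = 0.877 by limma). In both, at least 1 KO mouse lay inside the WT range. The median of the 45 genes rested on single mice: it was 0.0034 without WT-3, 0.029 without KO-3, 0.15 without WT-1 and 0.20 without KO-1. That of all genes was -0.029, 0.0035, 0.051 and 0.048 in the same order. With mitochondrial transcripts left out, the median of the members was 0.027 (32 higher, 15 lower), against -0.050 over all genes. After quantile normalization it was 0.015 (28 higher, 17 lower), against -0.018 over all genes. Of the macrophage and monocyte markers, 12 of 12 had higher means in KO, with a median log2 fold change of 0.80; 0 were called and 9 had an unadjusted p under 0.05 by limma. They summed to 156 to 264 TPM in KO mice, against 52.7 to 169 TPM in WT mice. Other lists whose means were higher were fibro-adipogenic progenitor (10 of 10 higher, median 0.37, with sums of 268 to 374 TPM in KO mice, against 188 to 346 TPM in WT mice), nerve and Schwann cell (5 of 5 higher, median 0.49, with sums of 29.3 to 80.7 TPM in KO mice, against 21.0 to 54.4 TPM in WT mice) and erythroid markers (4 of 4 higher, median 0.56, with sums of 1786 to 2879 TPM in KO mice, against 993 to 2524 TPM in WT mice). None of these was called, and the part of the 4 lists in the levels of the respiratory genes was not tested.

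P32L mice showed lower means than WT mice for 39 of the 45 genes, with a median log2 fold change of -0.079, against 0.015 over all genes, of which 44.5% were lower. The medians were -0.055, -0.085, -0.098 and -0.074 for complexes II, III, IV and V, and all 17 genes of complex V had a lower mean. The 6 with a higher mean were Sdhb, Uqcrb, Cox7a2, Cox8a, Cox6a1 and Cox7a2l. No gene passed: limma called 0, against 0.0437% of all genes, with 0 at an unadjusted p under 0.05, against 6.52%, and the same counts without the trend and with robust variances. No tested gene had P32L values clear of WT, which 9.21% of all genes did; among the untested genes, Cox4i2 did, at 0.390 to 0.420 TPM in P32L mice, against 0.445 to 0.598 TPM in WT mice. The smallest p-values belonged to Uqcr10, Cox7c and Cox4i1. Uqcr10 gave a log2 fold change of -0.16 ± 0.11 (SE, adjusted p = 0.999 by limma). Cox7c gave -0.14 ± 0.099 (SE, adjusted p = 0.999 by limma), and Cox4i1, with 229, 282 and 301 TPM in KO mice, 257, 218 and 206 in P32L mice and 228, 229 and 266 in R287Q mice, against 278, 264 and 222 in WT mice, gave -0.17 ± 0.13 (SE, adjusted p = 0.999 by limma). P32L-1 lay inside the WT range of Cox4i1 and the other 2 P32L mice below it. The median was -0.013 without WT-1, -0.045 without WT-2 and -0.17 without WT-3. It was -0.13 without P32L-1, -0.052 without P32L-2 and -0.049 without P32L-3. The median of all genes ran from -0.022 without P32L-1 to 0.056 without WT-1 under these omissions. Among marker lists, the means also differed for slow fibre (10 of 12 lower, median -0.90, with sums of 137 to 264 TPM in P32L mice, against 269.9 to 345 TPM in WT mice), adipocyte (8 of 8 higher, median 0.38, with sums of 266 to 1267 TPM in P32L mice, against 328 to 692 TPM in WT mice) and macrophage and monocyte markers (12 of 12 higher, median 0.25, with sums of 97.9 to 149.8 TPM in P32L mice, against 52.7 to 169 TPM in WT mice). Tendon (5 of 5 lower, median -0.39), nerve and Schwann cell (5 of 5 higher, median 0.32) and erythroid markers (4 of 4 higher, median 0.23) differed too, with overlapping sums. None of these markers was called. With the slow fibre score added to the model, the median of the 45 genes was -0.11 and that of all genes -0.018. The part of the other lists was not tested.

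R287Q mice, the only homozygous line, had a median log2 fold change of 0.0018 against WT, with 24 genes higher and 21 lower; over all genes the median was -0.036 and 36.8% were higher. All 4 genes of complex II and 7 of 9 of complex III had a higher mean, as did 6 of 15 of complex IV and 7 of 17 of complex V. No gene passed: limma called 0, against 0.0% of all genes, with 0 at an unadjusted p under 0.05, against 5.36%, also without the trend and with robust variances. No gene had R287Q values clear of WT, which 9.0% of all genes did. The smallest p-values belonged to Cox7a2, at 0.14 ± 0.099 (SE, adjusted p = 0.981 by limma), Cox8b, at -0.17 ± 0.13 (SE, adjusted p = 0.981 by limma), and Cox6a2, at -0.17 ± 0.16 (SE, adjusted p = 0.981 by limma). Cox8b had 286, 291 and 311 TPM in KO mice, 278, 244 and 254 in P32L mice and 232, 220.3 and 279 in R287Q mice, against 278, 319.9 and 229 in WT mice. R287Q-1 lay just above the lowest WT mouse and R287Q-2 below it. With mitochondrial transcripts left out, the median against WT was 0.078, with 40 of 47 genes higher, against 0.030 over all genes. It was -0.083 without WT-3 and -0.044 without R287Q-3, so its sign turned with single mice. The median of all genes was also lower then, at -0.070 and -0.077. That of the members was 0.053 with median-of-ratios scaling (all genes 0.0048) and 0.039 after quantile normalization (all genes -0.0072). Marker lists also differed in their means, among them slow fibre (11 of 12 higher, median 0.20, with sums of 155 to 566 TPM in R287Q mice, against 269.9 to 345 TPM in WT mice), skeletal muscle (11 of 12 lower, median -0.20, with sums of 36773 to 44308 TPM in R287Q mice, against 38419 to 49256 TPM in WT mice) and adipocyte (8 of 8 higher, median 0.40, with sums of 296 to 1062 TPM in R287Q mice, against 328 to 692 TPM in WT mice). None of these markers was called. With the slow fibre score added to the model, the median of the 45 genes was 0.012 and that of all genes -0.030. The part of the other lists was not tested.

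The intervals give the size of change that these mice leave room for. The half-width of the 95% interval of a log2 fold change had a median of 0.29 over the 45 genes, from 0.20 to 0.52. In KO, P32L and R287Q against WT alike, 43 of the 45 intervals lay within a change of 1.5 times in either direction and all 45 within 2 times. The outermost bounds against WT were -0.75 in P32L and 0.69 in KO, both of Cox6c2. These intervals are per gene and not adjusted for their number.

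**Figure D5:**
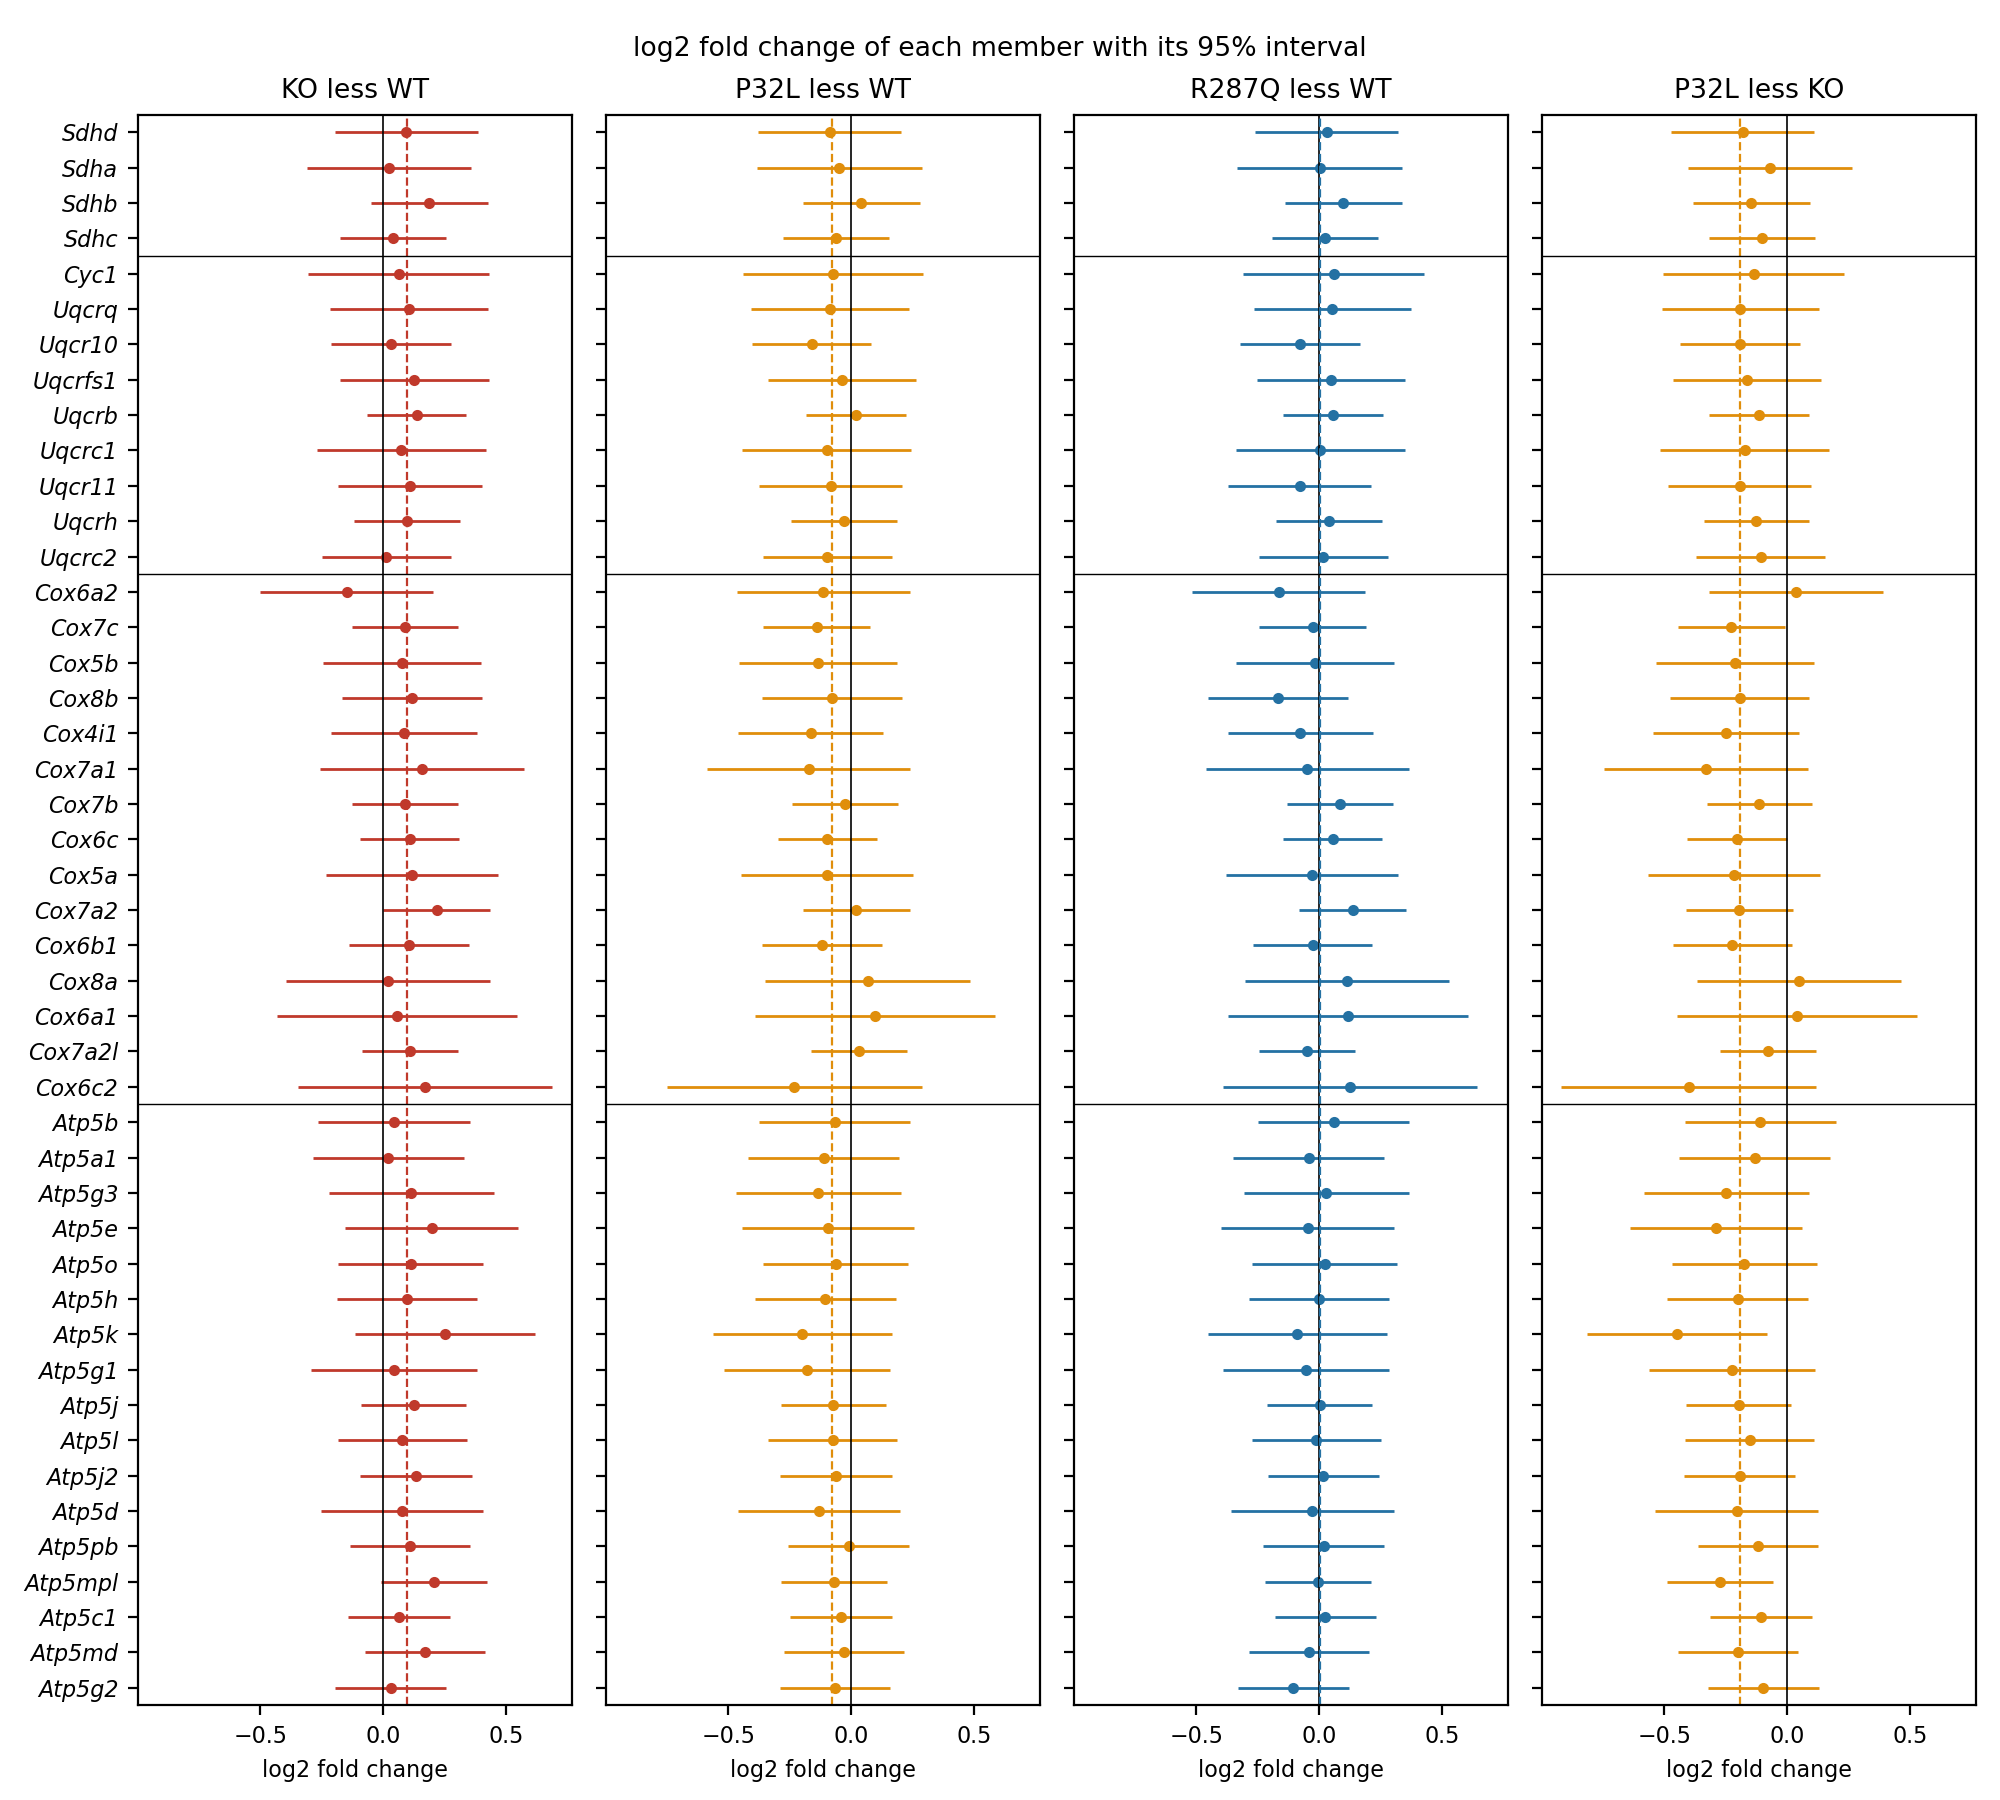
log2 fold change (points) with its 95% interval (lines) for each of the 45 tested genes in KO, P32L and R287Q mice against WT mice and in P32L against KO mice; the dashed line is the median. In the first 3 panels every interval includes 0; in the last, most points lie left of 0, and the intervals of Atp5k, Atp5mpl, Cox7c and Cox6c do not include it.

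Set against each other directly, P32L and KO mice gave a median further from 0 than any comparison with WT, but no gene passed. In P32L, 42 of the 45 genes had lower means than in KO, with a median log2 fold change of -0.19, against 0.0046 over all genes, of which 48.6% were lower. limma called 0, against 0.0219% of all genes, also without the trend and with robust variances. At an unadjusted p under 0.05 there were 4, Atp5mpl, Atp5k, Cox7c and Cox6c, all lower (8.89% of the members, against 3.91% of all genes lower and 8.01% in either direction). In 8 of the 45 genes (17.8%) every P32L mouse lay below every KO mouse, against 4.98% of all genes: Uqcrb of complex III, Cox7c, Cox8b, Cox6c and Cox7a2 of complex IV, and Atp5k, Atp5mpl and Atp5md of complex V. The medians of the complexes were -0.12 (II), -0.16 (III), -0.20 (IV) and -0.20 (V), and the 3 genes with higher means in P32L were Cox6a2, Cox8a and Cox6a1 of complex IV. Because the genes move together from mouse to mouse, these are not 8 separate observations. Uqcrb, Cox7c and Atp5k have near-identical copies, so their separation may change with the assignment of reads. The copy Gm12338 of Cox7c, for instance, had 353 TPM in KO-1 and 385 TPM in P32L-1. With copies added to their parent genes, 5 members had an unadjusted p under 0.05 by limma, against 732 of all 9137 genes, and 0 were called.

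Atp5k, the e subunit of the ATP synthase, which sits where 2 synthases join as a dimer, had 109, 102 and 93.4 TPM in P32L mice, 109, 91.4 and 129.8 in R287Q mice and 130.0, 131 and 156 in KO mice, against 118, 143 and 92.8 in WT mice. Its log2 fold change in P32L against KO was -0.45 ± 0.17 (SE, adjusted p = 0.531 by limma). The range of its WT values took in all 3 P32L mice and KO-1 and KO-2. Atp5mpl gave -0.27 ± 0.098 (SE, adjusted p = 0.516 by limma), and Cox7c -0.23 ± 0.099 (SE, adjusted p = 0.600 by limma). For Atp5mpl the 3 P32L mice lay at 65.5 to 69.0 TPM and the 3 KO mice at 77.4 to 90.7 TPM. Cox6c had 70.0, 68.2 and 65.8 TPM in P32L mice, 79.3, 69.5 and 78.2 in R287Q mice and 73.5, 77.9 and 84.3 in KO mice, against 72.2, 78.9 and 67.6 in WT mice, and a log2 fold change of -0.20 ± 0.092 (SE, adjusted p = 0.615 by limma). The median of the 45 genes was -0.11 without KO-3 and -0.087 after quantile normalization, with 41 genes still lower. Counts at an unadjusted p under 0.05 ran from 0 without KO-3 or without P32L-3 to 18 without KO-1. Over all 9152 genes the counts moved too: 488 without KO-3, 458 without P32L-3 and 928 without KO-1.

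Markers of other cell types also had lower means in P32L mice than in KO mice. Of the macrophage and monocyte markers, 12 of 12 had lower means in P32L, with a median log2 fold change of -0.54; they summed to 97.9 to 149.8 TPM in P32L mice, against 156 to 264 TPM in KO mice. Of the fibro-adipogenic progenitor markers, 10 of 10 were lower, at 219 to 288 TPM in P32L mice, against 268 to 374 TPM in KO mice. Of the erythroid markers, 4 of 4 were lower, at 1493 to 1985 TPM in P32L mice, against 1786 to 2879 TPM in KO mice. Of the slow fibre markers, 10 of 12 were lower, with a median of -0.58, at 137 to 264 TPM in P32L mice, against 154 to 620.3 TPM in KO mice. None of the tested markers in these 4 lists was called or at 0 in any mouse. Adgre1 and Mrc1 of the macrophage list and Myh7b of the slow fibre list averaged under 1 TPM and were not tested. With the slow fibre score added to the model, the median of the 45 genes in P32L against KO was -0.18 and that of all genes -0.012. The part of the other 3 lists was not tested.

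R287Q against KO gave lower means for 41 of the 45 genes, with a median of -0.090, against -0.046 over all genes, of which 65.4% were lower. limma called 0, against 0.0437% of all genes, with 0 at an unadjusted p under 0.05, against 7.93%. Without the trend there were 2 under 0.05, against 744 of all 9152 genes, and with robust variances 0. In 5 genes (11.1%), Cox8b, Cox7a2l, Atp5k, Atp5mpl and Atp5g2, every R287Q mouse lay below every KO mouse, against 7.97% of all genes, a share not far from the background. Cox7a2l, Atp5k and Atp5g2 have near-identical copies, so their separation may change with the assignment of reads. The copy Atp5k-ps2 of Atp5k, for instance, had 20.7 TPM in R287Q-3 and 15.4 TPM in KO-2. The smallest p-values were those of Cox8b, at -0.28 ± 0.13 (SE, adjusted p = 0.629 by limma), Atp5mpl, at -0.21 ± 0.098 (SE, adjusted p = 0.629 by limma), and Atp5k, at -0.34 ± 0.17 (SE, adjusted p = 0.657 by limma). With mitochondrial transcripts left out, the median of the 47 genes then tested turned to 0.057 and that of all genes to 0.080; after quantile normalization they were 0.030 (32 of 45 genes higher) and 0.0068, so the direction turned under both. With median-of-ratios scaling the median was -0.028. Marker lists whose means differed included macrophage and monocyte (12 of 12 lower, median -0.53, with sums of 90.8 to 155 TPM in R287Q mice, against 156 to 264 TPM in KO mice), slow fibre (11 of 12 higher, median 0.55, with sums of 155 to 566 TPM in R287Q mice, against 154 to 620.3 TPM in KO mice), fast glycolytic fibre (11 of 12 lower, median -0.16, with sums of 24384 to 31324 TPM in R287Q mice, against 29177 to 37917 TPM in KO mice) and erythroid (4 of 4 lower, median -0.46, with sums of 1377 to 2115 TPM in R287Q mice, against 1786 to 2879 TPM in KO mice). None of these was called. With the slow fibre score added to the model, the median of the 45 genes was -0.080 and that of all genes -0.031. The part of the other lists was not tested.

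R287Q against P32L gave higher means for 40 of the 45 genes, with a median of 0.086, whereas over all genes the median was -0.049 and 32.7% were higher. limma called 0, against 0.0% of all genes, with 0 at an unadjusted p under 0.05, against 6.67%, also without the trend and with robust variances. The smallest p-values were those of Cox6c, at 0.15 ± 0.092 (SE, adjusted p = 0.827 by limma), Cox6c2, at 0.36 ± 0.24 (SE, adjusted p = 0.833 by limma), and Cox7a2, at 0.12 ± 0.099 (SE, adjusted p = 0.879 by limma). No tested gene had values of R287Q clear of P32L, which 12.5% of all genes did; the untested Cox4i2 did, at 0.465 to 0.570 TPM in R287Q mice, against 0.390 to 0.420 TPM in P32L mice. With mitochondrial transcripts left out, all 47 genes that then passed the filter were higher in R287Q, with a median of 0.17, against 0.025 over all genes. Of the 47, 13 had an unadjusted p under 0.05, against 1140 of the 14392 genes tested there. Of the 47, 0 were called, against 2 of all genes. Of the slow fibre markers, 12 of 12 had higher means in R287Q, with a median of 1.11, and summed to 155 to 566 TPM in R287Q mice, against 137 to 264 TPM in P32L mice. With their score added to the model, the median of the 45 genes was 0.096 and that of all genes -0.016. Of the fast glycolytic fibre markers, 11 of 12 had lower means in R287Q, with sums of 24384 to 31324 TPM in R287Q mice, against 27349.5 to 34574 TPM in P32L mice; their part was not tested. The median of R287Q against P32L lay furthest from 0 of the 6 comparisons with mitochondrial transcripts left out and, at 0.12, after quantile normalization, whereas on the TPM scale that of P32L against KO did.

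The genes that work beside these complexes were read from lists, and none of their members was called in KO, P32L or R287Q against WT. Of the 36 nuclear subunits of complex I, 36 had a higher mean in KO than in WT (median 0.12), 31 a lower mean in P32L (median -0.068) and 21 a lower mean in R287Q (median -0.0059). These 3 comparisons share their WT mice. The smallest p-value in KO was that of Ndufc2, at 0.21 (adjusted p = 0.787 by limma), followed by Ndufv2, at 0.16 (adjusted p = 0.892 by limma). In P32L they were Ndufv3, at -0.17 (adjusted p = 0.999 by limma), and Ndufa1, at -0.15 (adjusted p = 0.999 by limma), and in R287Q Ndufa12, at -0.13 (adjusted p = 0.981 by limma), and Ndufb11, at 0.15 (adjusted p = 0.981 by limma). The 6 mitochondrially encoded subunits had medians of 0.010 in KO, 0.021 in P32L and 0.067 in R287Q; mt-Co3 and mt-Atp8 gave 0.11 (adjusted p = 0.898 by limma) and -0.22 (adjusted p = 0.898 by limma) in KO, and mt-Co1 and mt-Cytb 0.073 (adjusted p = 0.981 by limma) and 0.072 (adjusted p = 0.981 by limma) in R287Q.

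Of the 35 assembly factors of complexes II to V, 29 were tested: 19 had a higher mean in KO (median 0.053), 13 in P32L (median -0.013) and 7 in R287Q (median -0.034). The smallest p-values in KO were those of Sdhaf4 for complex II, at 0.22 (adjusted p = 0.852 by limma), Uqcc2 for complex III, at 0.21 (adjusted p = 0.896 by limma), Coa6 for complex IV, at 0.18 (adjusted p = 0.852 by limma), and Tmem70 for complex V, at 0.087 (adjusted p = 0.935 by limma). Among the carriers and ATP-handling genes, 8 of 10 had a higher mean in KO, 3 in P32L and 4 in R287Q. Slc25a4, the muscle ADP/ATP carrier, averaged 1744 TPM and gave 0.15 (adjusted p = 0.909 by limma) in KO, and Ckmt2, the mitochondrial creatine kinase, -0.20 (adjusted p = 0.999 by limma) in P32L. Of the 15 transcriptional regulators only 7 reached a mean of 1 TPM; Ppargc1a, at 0.974 TPM, and Nrf1, at 0.286 TPM, did not. Of the 7, 2 had a higher mean in KO, 6 in P32L and 3 in R287Q. Pprc1, a coactivator of the family of Ppargc1a, gave -0.13 (adjusted p = 0.873 by limma) in KO and 0.14 (adjusted p = 0.918 by limma) in P32L, and Tfb2m, a mitochondrial transcription factor, -0.14 (adjusted p = 0.981 by limma) in R287Q.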

How the data were processed

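The authors deposited 1 table of log2 values, 1 per gene symbol and mouse; 2 raised to a value, less 1, summed to 997591 to 998739 in each library, so the values were read as log2(TPM + 1). FastQC, HISAT2, StringTie and DESeq2 with the mouse build mm10 are named per the submitters' processing notes; versions, the annotation and any adjustment before deposit: not given in the sources used here. The planned tests assumed TPM with a pseudocount of 1, which the deposited scale already holds. Depth is unknown.

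The 9152 genes averaging 1 TPM or more entered limma (version 3.58.1 in R 4.3.3), fitted to the 4 group means of the 12 libraries with variances that follow the mean level (8 residual and 3.11 prior degrees of freedom). Two-sided p-values were adjusted by Benjamini and Hochberg's method within each comparison, and genes with adjusted values under 0.05 were called. Fold changes are differences of mean log2(TPM + 1), so those of genes near 1 TPM are understated. Copies came from blastn of GENCODE M21 transcripts, and promoters from RefSeq (GRCm38.p6). The fit was tested on simulated data.

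Members, lists and rules were chosen with earlier results of these data known. Named were, per comparison, called genes or else the 3 with the smallest p; the 3 highest of each complex; complex II, Cyc1, isoform families and the extremes of spread; and 2 genes of each list, not all printed. Alternatives varied the pseudocount, filter, scaling, variance model, samples, covariates and replicates.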

Additional observations from a re-analysis of the deposited data

How the results depend on the processing

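In each of the 6 comparisons 0 genes of complexes II to V were called under all 26 alternatives, including the addition of copies to their parent genes, which was chosen after seeing the data. The log2 fold changes of the 3 genes with the smallest p in each comparison, and of Cox6a2 in KO, kept their direction under each alternative. One median moved by more than the spread of the score within groups (0.13): R287Q against KO, -0.090, became 0.057 with mitochondrial genes and copies left out, with a median of all genes of 0.080 there and -0.046 otherwise; the change of scale is part of that alternative. Quantile normalization also turned it, to 0.030, with 0.0068 for all genes; the cause was not tested. Leaving out 1 mouse gave medians of 0.0034 to 0.20 in KO, -0.17 to -0.013 in P32L and -0.083 to 0.079 in R287Q against WT, -0.27 to -0.11 in P32L and -0.18 to -0.014 in R287Q against KO, and 0.033 to 0.14 in R287Q against P32L. The medians of all genes moved as well, against WT from -0.029 to 0.051 in KO, -0.022 to 0.056 in P32L and -0.077 to 0.011 in R287Q. The difference in log2 ratio of Cox6a2 to Cox6a1 in KO was -0.41 to 0.0041 with 1 mouse left out, that of Cox7a1 to Cox7a2 -0.23 to 0.075 and that of Cox8b to Cox8a -0.085 to 0.33. Array weights were taken from a fit that stopped before converging.

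Replicate numbers did not pair the mice: against WT, residuals of same-numbered mice correlated at -0.51 to -0.068 over genes, and no shared litter or day is labelled. With the number as a block 0 genes of complexes II to V were called in each comparison. Of all 9152 genes, 2 were called in P32L against KO, 1 in R287Q against KO and 0 in the other comparisons. The medians were again 0.097 in KO, -0.079 in P32L and 0.0018 in R287Q. Each group holds each number once, so the block could not change them and they are no check. With 3 mice a group, changes well under 1.5 times could not be told from the spread, and TPM gives no depth from which to separate counting error from differences between mice.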
